A study of Mus musculus with 21 samples.

Results

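Of 10031 protein-coding genes expressed in immortalized mouse embryonic fibroblasts (MEFs), 1722 (17.2%) had no c-MYC peak within 1000 bp of the gene start. They were chosen by position and level: the start of a protein-coding gene on chromosomes 1 to 19 or X, a mean of at least 1 FPKM (sequenced fragments scaled to transcript length and library size) in the 3 control libraries of the LacZ line, and no peak in either c-MYC peak list within that window. These starts are called peak-free promoters here. Among the other expressed starts, 106 had a peak in the list from Hsf1-deleted cells (CKO) only, 3836 in both lists and 4367 in the list from cells with Hsf1 (WT) only. The level and the peaks are thus the basis of the choice and are described without a test.

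RNA came from 2 lines of these MEFs, which stably express LacZ or V5-tagged GCN5, a histone acetyltransferase encoded by Kat2a. Each line was transfected for 2 days with 10 nM of siRNA against Hsf1 (siHsf1) or of control siRNA (siControl), with 3 libraries per group and 12 in all. The c-MYC peaks came from CUT&RUN, where DNA beside an antibody-marked protein is released by a nuclease and sequenced. It was done on MEFs given 4-hydroxytamoxifen for 7 days to delete Hsf1 (CKO) and on MEFs given ethanol (WT), with 2 libraries per genotype and 1 IgG library on cells of both genotypes mixed. The antibody is labelled as binding both c-MYC and N-MYC, and each genotype has 1 peak list without a replicate error. The labels call the RNA libraries triplicates and do not say whether they were separate cultures or whether a line is 1 clone, so p-values measure the spread between libraries as labelled.

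The transcription factor c-MYC binds with its partner MAX to E-box letters and is found at the promoters of a large share of active genes in growing cells, above all at genes of ribosome production, protein synthesis and cell growth. HSF1 is the factor that drives heat-shock chaperone genes. Promoters of many tissue-restricted, secreted and immune genes hold few CpG dinucleotides and often a TATA box, while most housekeeping promoters lie in CpG islands.

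The following promoters, chosen among those with a RefSeq sequence, show the range of the set: 3 of the largest rises and 3 of the largest falls after siHsf1 in the LacZ line, then the 2 with the highest FPKM. Each line holds the 150 bases before the RefSeq start (GRCm38.p6), 5′ to 3′ on the strand of the gene. Capitals mark the letters of the motifs searched for, which are spelled out with the promoter results.
Ifi44, chr3:151749911-151750060, minus strand: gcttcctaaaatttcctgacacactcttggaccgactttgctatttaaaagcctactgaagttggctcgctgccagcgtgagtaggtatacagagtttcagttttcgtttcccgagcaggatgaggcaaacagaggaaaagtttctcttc
Trim30a, chr7:104465194-104465343, minus strand: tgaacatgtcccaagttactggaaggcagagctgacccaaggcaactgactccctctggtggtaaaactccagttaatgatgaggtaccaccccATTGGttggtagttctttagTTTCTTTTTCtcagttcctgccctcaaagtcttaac
Mmp13, chr9:7272364-7272513, plus strand: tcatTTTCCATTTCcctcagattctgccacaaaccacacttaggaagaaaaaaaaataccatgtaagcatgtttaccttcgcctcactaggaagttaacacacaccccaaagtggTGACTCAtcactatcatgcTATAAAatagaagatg
9030617O03Rik, chr12:100778907-100779056, plus strand: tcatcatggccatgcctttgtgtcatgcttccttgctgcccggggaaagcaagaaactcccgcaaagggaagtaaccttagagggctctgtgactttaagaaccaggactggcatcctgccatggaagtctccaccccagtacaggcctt
Prrg4, chr2:104849851-104850000, minus strand: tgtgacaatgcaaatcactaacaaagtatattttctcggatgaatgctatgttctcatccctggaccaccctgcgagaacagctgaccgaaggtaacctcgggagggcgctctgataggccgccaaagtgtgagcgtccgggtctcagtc
Pros1, chr16:62854157-62854306, plus strand: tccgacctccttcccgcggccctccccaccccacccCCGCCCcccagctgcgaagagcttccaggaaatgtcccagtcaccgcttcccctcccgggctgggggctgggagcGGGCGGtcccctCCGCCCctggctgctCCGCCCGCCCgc
Rpl37a, chr1:72711110-72711259, plus strand: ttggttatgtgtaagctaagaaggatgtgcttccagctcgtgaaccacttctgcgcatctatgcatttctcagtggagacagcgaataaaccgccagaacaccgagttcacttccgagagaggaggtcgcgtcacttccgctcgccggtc
Rpl18, chr7:45717921-45718070, plus strand: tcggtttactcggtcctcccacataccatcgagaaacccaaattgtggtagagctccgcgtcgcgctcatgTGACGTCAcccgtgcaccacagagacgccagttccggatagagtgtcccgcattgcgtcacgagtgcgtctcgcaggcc
The Trim30a window held a CCAAT box and an interferon-stimulated response element (TTTC, any 2 bases, TTTC). The Mmp13 window held that element too, with an AP-1 site (TGANTCA) and a TATA box (TATAAA). In the window of Pros1 the GC box GGGCGG stood repeatedly, and the Rpl18 window held a CRE (TGACGTCA). In the windows of Ifi44, 9030617O03Rik, Prrg4 and Rpl37a none of the searched letters were found. The CpG observed over expected ratio of the 300-base promoters was 0.393 for Ifi44, 0 for Trim30a and 0.0722 for Mmp13, against 1.18 for Rpl37a and 0.929 for Rpl18.

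Hsf1 itself, whose start has a peak, averaged less RNA in each knockdown group. In CPM (counts scaled to library size, here after TMM scaling), it was at 57.7, 55.5 and 47.9 in siHsf1 LacZ libraries, against 129, 129 and 134 in siControl LacZ libraries. In the GCN5 line it was at 68.1, 74.7 and 73.2 with siHsf1, against 137, 121 and 138 with siControl. The groups did not overlap in either line. With libraries scaled by the ERCC spike-in RNA, the log2 fold change was -1.65 ± 0.33 (SE) in the LacZ line (edgeR adjusted p = 0.00012) and -0.93 in the GCN5 line, where the call was missed (adjusted p = 1). With TMM scaling it was -1.28 and -0.88, both called (adjusted p = 2.6e-12 and 8.3e-07). Myc RNA, at a start with a peak, was at 99.7, 89.6 and 88.3 CPM in siHsf1 LacZ libraries, against 131, 143 and 148 in siControl LacZ libraries (TMM log2 -0.60, adjusted p = 7.2e-07). Its spike-in call ended without siControl LacZ library 1 or 3 or siHsf1 LacZ library 2 or 3 (log2 -0.71 to -0.92, edgeR adjusted p 0.16 to 0.28). Library totals ran from 3693554 to 8162787 gene counts, lower in every GCN5 library than in any LacZ library. The 10 fibroblast markers summed to 9175 to 10290 CPM without scaling in siHsf1 LacZ, 6002 to 6900 in siControl LacZ, 8083 to 8307 in siHsf1 GCN5 and 7715 to 7850 in siControl GCN5. Lum was at 0 throughout, and Thy1 was at 0 in all libraries but siHsf1 LacZ library 3 (0.124 CPM).

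The peak-free promoters had lower RNA levels than expressed promoters with a peak. Their median was 6.27 FPKM, against 12.9 FPKM for starts with a peak. The share without a peak was 34.2% of starts at 1 to 2 FPKM, 25.3% at 2 to 5, 18.2% at 5 to 10, 12.8% at 10 to 30, 10.3% at 30 to 100 and 8.09% at 100 FPKM or more. Among starts below the minimum of 1 FPKM it was 58.7%, or 6798 of 11582. The level also decided little by 1 library, since 1650 of the 1722 reached 1 FPKM in all 3 siControl LacZ libraries and 14 in at most 1 of them. By the siControl GCN5 libraries, 1665 of them passed the same minimum.

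The genes at the top of the range were of several kinds. The ribosomal protein genes Rpl37a and Rpl18 led with 517 and 509 FPKM, followed by Dcun1d5, which promotes cullin neddylation, with 502, and Tmem123 with 361. Cstb, the protease inhibitor cystatin B, had 309 FPKM. Yap1, the co-activator held back by the Hippo pathway, had 301, and Ctsd, the lysosomal protease cathepsin D, had 253. The proteasome subunit Psma2, the ribosomal protein Rpl15 and Ngfrap1 had 232, 228 and 213 FPKM. Dcun1d5, Tmem123 and Yap1 lie in 1 stretch of chromosome 9 without peaks. Reads of ribosomal protein genes can be shared with near-identical copies, so these levels are uncertain. At the FPKM minimum, Trim12c (1.01), Cyp27a1 (1.01) and Cys1 (1.02) lay just inside, and Nat14 (0.994), Tcp11l1 (0.991) and Clic3 (0.991) just outside.

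Most of these starts were not far from a peak. The median distance to the nearest peak was 5718.5 bp, with quartiles of 2507.75 and 12299 bp. For 325 starts it was between 1000 and 2000 bp, for 459 up to 5000, for 399 up to 10000, for 479 up to 50000, for 42 up to 100000 bp and for 18 more. The nearest peak lay upstream of 843 and downstream of 879, and it was a WT peak for 1682 and a CKO peak for 40. A peak lay inside the gene body of 1188 (69.0%). The same share was not counted for the genes with a peak at the start. Peaks were dense: the WT list holds 220037, which cover 510 Mb, and 881 Mb lay within 1000 bp of a peak of either list. The median maximal coverage was 0.00411 over all WT peaks and over the WT peaks nearest the peak-free promoters. For WT peaks at expressed starts it was 0.00616. With only peaks at or above the median of their list, 2258 expressed starts (22.5%) had no peak. The median gene span of the peak-free genes was 25602 bp, against 22746 bp for genes with a peak at the start. The closest to the window were Spr at 1001 bp, Iqgap1 at 1004 and Pdgfa at 1006, while Rpp40 at 995, Pigc at 993 and Styk1 at 983 bp fell just inside it. Of 1326 with a RefSeq promoter, 212 had some RefSeq start of the gene within 1000 bp of a peak. The genes stood apart more often: 10.1% of the starts (174) had another protein-coding start within 1000 bp, against 19.5% (1622) of those with a peak.

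Chromosomes differed widely in the share of expressed starts without a peak. On chromosome 18 it was 42.9% (106 of 247), on chromosome 12 39.4% (130 of 330) and on chromosome 7 39.1% (288 of 737). On chromosome 15 it was 0.955% (4 of 419: Cacnb3, Xrcc6, Hdac7 and LOC102634078, listed after the count was seen). Chromosomes 8, 3, 11 and 6 held 4.62%, 4.77%, 5.24% and 6.53%. The order followed the density of WT peaks, which was 18.9 per Mb on chromosome 12, 34.9 on chromosome 7 and 38.3 on chromosome 18, against 173 on chromosome 15. Over the 20 chromosomes the Spearman rho of share and density was -0.964. Share and density are read from the same peaks, so the 2 are not independent.

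Starts below the FPKM minimum, which the level did not choose, went the same way: 89.5% of them had no peak on chromosome 18 and 2.56% on chromosome 15 (rho with the share among expressed starts 0.937). The median level of all expressed genes also differed between chromosomes. It was 22.2 FPKM on chromosome 15, 7.09 on chromosome 12 and 8.17 on chromosome 18 (rho -0.853). WT peaks covered 63.7% of the length of chromosome 15 and 3.68% of chromosome 12. The sparse CKO list gave a like order, with 6.61 peaks per Mb on chromosome 15 and 0.792 on chromosome 12. No DNA copy number was given for these cells, and its part in the order was not tested. Within chromosomes the share varied too: of 193 windows of 10 Mb with at least 20 expressed starts, 14 had no peak-free promoter, 35 had under 5% and 9 had over 50%. The highest, 71.4% (20 of 28), was on chromosome X from 130 to 140 Mb.

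**Figure D1:**
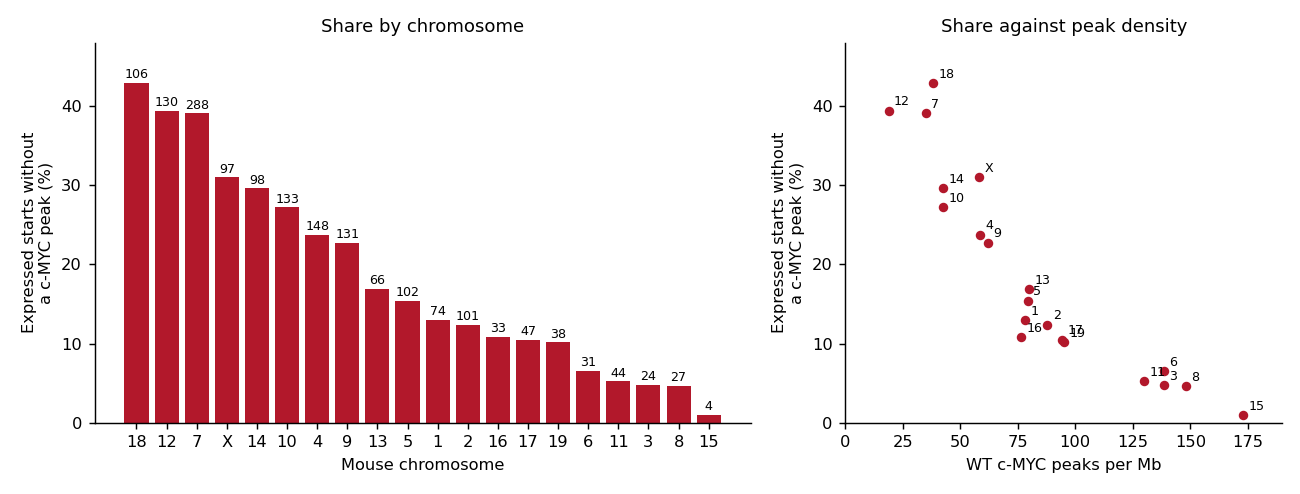
Left, the share of expressed starts without a c-MYC peak (%) on each mouse chromosome, with the number of such starts above each bar. Right, the same share against the WT peaks per Mb of the chromosome, 1 point per chromosome; the share runs from 42.9% on chromosome 18 to 0.955% on chromosome 15, which has the most peaks per Mb.

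The longest stretch between peaks on these chromosomes, and the only one over 1 Mb, held 8 peak-free promoters. It spans chr9:6784090-8041586 and has 16 protein-coding starts, among them a cluster of matrix metalloproteinase genes. The set includes Dync2h1 (a dynein motor of cilia), Dcun1d5, Mmp13 and Mmp3 (secreted proteases of the matrix), Tmem123, the apoptosis inhibitors Birc2 and Birc3, and Yap1. Of the 18 peak-free promoters over 100000 bp from a peak, 7 lie here, and Mmp13 was 488425 bp and Mmp3 595765 bp away. Levels in the stretch ranged widely: Birc2 had 92.9, 89.5 and 89.2 FPKM in siControl LacZ libraries, and Yap1 had 302, 293 and 308. The metalloproteinases Mmp13 and Mmp3 stood at 1.68 and 1.66 FPKM. The remaining starts, all of metalloproteinase genes, were below the minimum, from 0.019 FPKM (Mmp27) to 0.273 (Mmp10). The stretch was singled out after its length was seen, and the number of its copies in these cells was not measured.

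By function, the share of expressed starts without a peak varied between lists, also between lists of related function. Of 65 expressed genes on a list of classical MYC targets and ribosome biogenesis factors, 2 had no peak (3.08%): Ccnd2, which encodes cyclin D2, and Ddx10, an RNA helicase of ribosome assembly. Of 80 cytosolic ribosomal protein genes 5 had none (6.25%), Rpl15, Rpl17, Rpl18, Rpl37a and Rps20. Of 32 heat-shock chaperone genes 3 had none (9.38%), Cdc37, Chordc1 and Dnajb5. Cyclins and cyclin-dependent kinases gave 2 of 38 (5.26%), histone genes 0 of 18 and Hox genes 0 of 12. The chromosomes of the listed genes alone would give 14.5%, 20.1% and 17.7% for the first 3 lists. They would give 18.4% for cyclins and cyclin-dependent kinases, 16.2% for histone genes and 8.48% for Hox genes. This figure is the mean, over the expressed genes of a list, of the share without a peak on each gene's chromosome. The first 3 lists also hold highly expressed genes, with a median of 45.9 FPKM for MYC targets, 621 for ribosomal proteins and 76.4 for chaperones. The shares of ribosomal proteins and chaperones lay near those of all starts at such levels, 8.09% at 100 FPKM or more and 10.3% at 30 to 100 FPKM. The share of MYC targets (3.08%) lay below that 10.3%. Cyclins and cyclin-dependent kinases had a median of 16.2 FPKM, where all starts at 10 to 30 FPKM gave 12.8%. Histone and Hox genes had medians of 2.16 and 3.18 FPKM, where all starts at 2 to 5 FPKM gave 25.3%. Other genes of protein synthesis and turnover were near or above the share of all expressed starts: translation factors gave 10 of 62 (16.1%, from chromosomes 17.5%), mitochondrial ribosomal proteins 11 of 74 (14.9%, from chromosomes 14.5%) and the proteasome 8 of 35 (22.9%, from chromosomes 18.5%). Their medians were 50.8, 32.1 and 137 FPKM, so these shares lay above those of all starts at such levels.

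At the other end, 5 of 11 serpins (45.5%) had no peak, 3 of them related genes of the Serpinb9 cluster. Likewise 7 of 18 interleukins and their receptors (38.9%), such as Il6, Il18 and Il33, had none. Nor did 4 of 11 genes of complement and the acute phase (36.4%). Matrix proteases and their inhibitors gave 9 of 31 (29.0%) and lysosome and autophagy genes 14 of 49 (28.6%), among them the cathepsins Ctsc, Ctsd and Ctsz and the hydrolases Gla and Tpp1. Collagens gave 5 of 18 (27.8%): Col3a1, Col4a5, Col5a3, Col6a2 and Col6a3. Growth factor ligands gave 8 of 32 (25%), including Bdnf, Bmp4 and Pdgfa. Type I interferon response genes gave 11 of 45 (24.4%) and chemokines, cytokines and their receptors 9 of 37 (24.3%). The figures from chromosomes alone were 17.3% for serpins, 16.7% for interleukins, 13.8% for complement, 19.9% for proteases, 17.6% for lysosome genes, 16.2% for collagens and 16.3% for the interferon list. Median levels were 5.91 FPKM for serpins, 5.52 for interleukins and 8.56 for the interferon list, where all starts at 5 to 10 FPKM gave 18.2%. They were 10.4 for complement, 19.2 for proteases, 18.9 for lysosome genes and 28.8 for collagens, where all starts at 10 to 30 FPKM gave 12.8%. Among lists of matrix and secreted genes with lower shares, matrix glycoproteins and proteoglycans gave 6 of 38 (15.8%, from chromosomes 12.9%). The chemokines alone gave 1 of 12 (8.33%, from chromosomes 10.9%). Transcription factor genes stood at the level of all expressed genes with 121 of 708 (17.1%), while the C2H2 zinc finger genes among them gave 70 of 298 (23.5%, from chromosomes 19.9%). These zinc finger genes had a median of 3.32 FPKM, and all starts at 2 to 5 FPKM gave 25.3%. The lists were written with earlier results of these data known, and the counts are descriptions without a test.

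**Figure D2:**
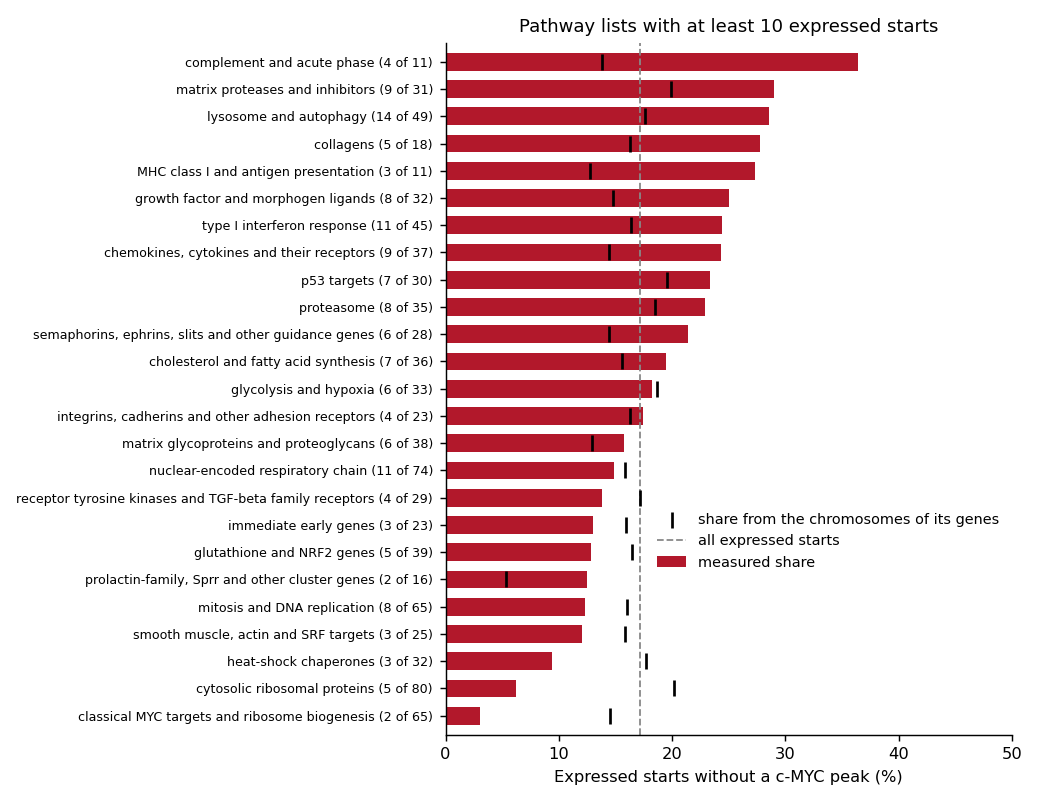
The share of expressed starts without a c-MYC peak (%, bars) for each pathway or function list with at least 10 expressed starts, with the counts beside each name; families taken by gene symbol, such as serpins and Hox genes, are not drawn. Black ticks give the share that the chromosomes of a list's genes alone would give and the dashed line that of all expressed starts (17.2%); MYC targets (3.08%) and ribosomal proteins (6.25%) lie at the bottom and complement genes (36.4%) at the top of the lists drawn.

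The promoters themselves held fewer CpG dinucleotides. For 974 peak-free promoters with a RefSeq start within 100 bp of the gene start, the median CpG observed over expected ratio of the 300-base promoter was 0.736 and the median GC content 58.7%. For 5278 expressed promoters with a peak the medians were 0.807 and 61.7%, and for 6636 promoters below the FPKM minimum 0.245 and 49.3%. A ratio under 0.5 was found in 23.1% (225) of the peak-free promoters, against 10.7% (567) of those with a peak and 6.97% of those with a CKO peak. The difference was present at each level of RNA: 34.1% against 18.9% at 1 to 5 FPKM, 16.9% against 9.72% at 5 to 10, 14.7% against 8.62% at 10 to 30 and 15.4% against 8.10% at 30 FPKM or more.

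Motifs were searched by letters on both strands of the same 300 bases. The E-box CACGTG stood in 8.11% of peak-free promoters, 11.7% of expressed promoters with a peak, 14.8% of those with a CKO peak and 8.18% of all promoters. The variant CACGCG was counted separately, also where it overlapped a CACGTG, and gave 13.0%, 20.4%, 25.1% and 12.3% in the same order. The TATA box TATAAA gave 9.55%, 6.33%, 5.73% and 14.5%, and the GC box GGGCGG 63.9%, 70.4%, 72.4% and 47.0%. The paired heat shock unit TTCNNGAA was in 6.16%, 6.84%, 6.65% and 7.79%. The other motifs searched were CCAAT, the interferon-stimulated response element, TGANTCA, TGACGTCA, the NRF1 site, the ETS letters CCGGAAGT and the full heat shock element of 3 units, which stood in 0.205% of peak-free promoters and 0.417% of those with a peak. A match is a string of letters, and whether a factor binds there was not measured.

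**Figure D3:**
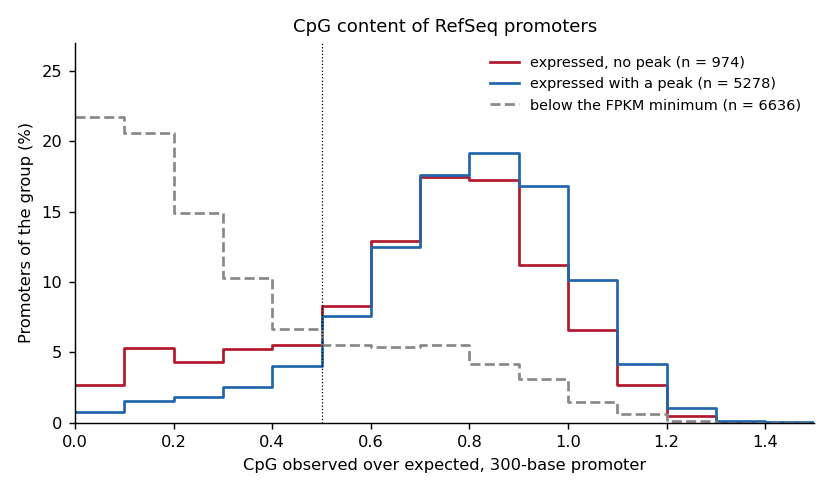
Distribution of the CpG observed over expected ratio (x axis, 300-base RefSeq promoter) as the percent of promoters of each group in steps of 0.1, for peak-free expressed promoters (n = 974), expressed promoters with a peak (n = 5278) and promoters below the FPKM minimum (n = 6636). Left of the dotted line at 0.5 lie 23.1% of the peak-free promoters, 10.7% of those with a peak and 74.1% of those below the minimum.

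After siHsf1 in the LacZ line, with libraries scaled by spike-in RNA, the balance of called rises and falls among these genes depended on the libraries and the fit. Of 1710 that passed the filter on low counts, 24 were called higher and 67 lower at an edgeR adjusted p under 0.05, that is 5.32%, where 7.02% of all 12187 genes tested were called (0.993% higher and 6.03% lower). Their median log2 fold change was -0.303, near the -0.349 of all genes. With TMM scaling, which sets the middle of all genes near 0 (median 0.02), 394 were higher and 247 lower, 37.5% of them against 40.6% of all genes (21.1% higher and 19.5% lower), with a median of 0.07. All 24 called higher and 65 of the 67 called lower with spike-in scaling were also called with TMM. Without 1 library the spike-in balance turned in 3 of 6 cases: 22 were higher and 11 lower without siControl LacZ library 1, 31 and 14 without siHsf1 LacZ library 2, and 16 and 9 without siHsf1 LacZ library 3. It also turned with the 6 libraries of the line alone (12 higher, 7 lower). With a term for the replicate number in the fit, 51 were higher and 382 lower. The spike-in median ran from -0.563 to -0.0829 when 1 library was left out. The rule for the set read the siControl LacZ libraries, which stand in this contrast; with the minimum set in siControl GCN5 libraries instead, 89 were called, 23 higher and 66 lower.

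The counts by class of promoter are given side by side, with no test between the classes. With spike-in scaling 1.40% of the peak-free genes were higher and 3.92% lower, against 0.759% and 4.19% of 4348 genes with a WT peak only and 0.366% and 9.01% of 3827 with a peak in both lists. Medians were -0.303, -0.322 and -0.415 in the same order. With TMM scaling 23.04% were higher and 14.4% lower, against 24.9% and 16.7% with a WT peak only and 19.6% and 30.02% with a peak in both. By level, at 30 FPKM or more 6.87% of the peak-free genes and 12.6% of those with any peak were lower, and at 5 to 10 FPKM 4.93% and 4.70%. Leaving out 1 library moved the spike-in count of 91 to 33, 166 or 41 without siControl LacZ library 1, 2 or 3, and to 393, 45 or 25 without siHsf1 LacZ library 1, 2 or 3. With TMM scaling it stayed between 528 and 630.

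**Figure D4:**
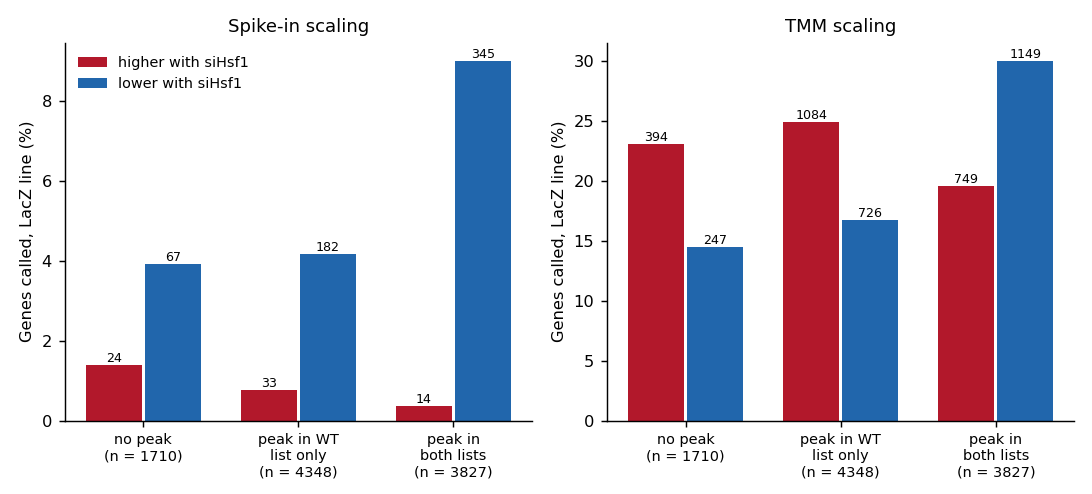
Percent of tested genes called higher (red) or lower (blue) after siHsf1 in the LacZ line (edgeR adjusted p under 0.05), with spike-in scaling on the left and TMM scaling on the right, for expressed genes by c-MYC peak at the start; numbers above bars are genes. With spike-in scaling, 67 of 1710 genes without a peak (3.92%) and 345 of 3827 with a peak in both lists (9.01%) were lower.

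Interferon-induced genes held the largest rises. All 11 of the list's peak-free members were higher with TMM scaling and 9 with spike-in scaling, with a median log2 fold change of 2.08 and 1.76. Of the 34 tested members with a peak, 33 and 20 were higher, so the list rose at starts with and without a peak. Ifit3, which binds foreign RNA together with other Ifit proteins, was at 75.4, 99.3 and 86.1 CPM in siHsf1 LacZ libraries, against 5.37, 4.81 and 6.69 in siControl LacZ libraries. On the log2 scale the fold change was 3.54 ± 0.36 by spike-in (adjusted p = 1.3e-18) and 3.94 ± 0.17 by TMM scaling. Ifi44, an interferon-induced protein, was at 98.8, 88.8 and 94.3 CPM, against 8.39, 9.36 and 7.31 (log2 3.16 ± 0.35, adjusted p = 1.4e-15). In both genes every siHsf1 library lay far above every siControl library.

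Trim30a, a Trim protein induced in immunity, was at 47.2, 42.1 and 44.1 CPM with siHsf1, against 5.37, 3.92 and 3.35 with siControl (log2 3.03 ± 0.37, adjusted p = 3.7e-13). Its neighbours Trim30d (log2 2.19 ± 0.37) and Trim12c (2.11 ± 0.38) and, elsewhere, Zbp1, a sensor of Z-form nucleic acid (1.98 ± 0.33), rose too. Cmpk2, a nucleotide kinase of mitochondria, rose by a log2 of 1.76 ± 0.36, Gbp2, a GTPase, by 1.20 ± 0.32 and H2-Q4, an MHC class I gene, by 1.23 ± 0.33. Reads of Trim30a, Trim30d, Trim12c and H2-Q4 may be shared with near-identical neighbours. The spike-in calls of Gbp2 and H2-Q4 ended without siControl LacZ library 3 or siHsf1 LacZ library 3, where the log2 of Gbp2 was 1.14 and 1.21 (adjusted p = 0.079 and 0.068). Rsad2 (viperin), Ifi27l2a, Trim21 and Uba7, the enzyme that activates ISG15, complete the called list, with log2 1.32, 2.11, 1.38 and 1.02; they are named after their values were seen, as are Ifih1 and Ifi27. Ifih1 and Ifi27 were called with TMM scaling alone (log2 1.15 and 0.92). Of the 14 called genes of any function with a RefSeq promoter that rose, 13 had a CpG ratio under 0.5 and 8 held an interferon-stimulated response element (57.1%, against 4.00% of peak-free promoters and 3.62% of all promoters). The AP-1 letters were in 6 of the 14 (42.9%, against 5.13% and 7.33%).

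Markers of blood cells moved with these genes in the LacZ line. The 10 haematopoietic markers, none of them in the set, summed to 52.7 to 60.5 CPM in siHsf1 LacZ, 26.5 to 26.9 in siControl LacZ, 25.4 to 30.6 in siHsf1 GCN5 and 22.7 to 26.5 in siControl GCN5. Among them, Adgre1, Itgam, Cd3e, Laptm5 and Tyrobp were at 0 in all 12 libraries, and Ptprc was at 0 in all 6 LacZ libraries. The sum rested on Cd14, at 40.7, 38.8 and 45.9 CPM with siHsf1, against 17.9, 20.2 and 19.7 with siControl, and on Cd68. In bulk RNA, a change in the number of cells of a type and a change in RNA per cell cannot be told apart.

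The other rises were in genes of several kinds. Mmp13, a collagenase, was at 33.1, 28.4 and 30.7 CPM with siHsf1, against 3.44, 6.07 and 4.21 with siControl (log2 2.46 ± 0.36, adjusted p = 1.2e-08). Acta2, the smooth muscle actin, was at 41.4, 59.4 and 47.4 CPM, against 11.3, 12.3 and 12 (log2 1.65 ± 0.33, adjusted p = 0.00015). Neither gene's groups overlapped. Prl2c2, a proliferin (log2 1.58 ± 0.33), Slc17a1, a phosphate transporter (1.60 ± 0.40), Abca1, which exports cholesterol (1.27 ± 0.32), Wisp2, a secreted matricellular protein (1.18 ± 0.32), and Serping1, the C1 inhibitor (1.14 ± 0.34), were also called with spike-in scaling. Without siControl LacZ library 3 the spike-in calls of Abca1, Wisp2 and Serping1 ended, without siHsf1 LacZ library 3 those of Wisp2 and Serping1 and without siControl LacZ library 2 that of Serping1 (log2 0.97 to 1.12 in its 3 cases). Agt, Osr1, Synpo and Clec2d complete the 24, with log2 1.87, 1.05, 0.96 and 1.41; they too are named after their values were seen.

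More genes of the protease, complement, lysosome and ligand lists were called with TMM scaling, where 21.1% of all genes were higher (0.993% with spike-in scaling). Of the 9 matrix protease genes 2 were higher with spike-in scaling and 5 with TMM, of the 4 complement genes 1 and 4, of the 14 lysosome genes 0 and 8, and of the 8 growth factor ligands 0 and 5. Of the members with a peak, with TMM, 12 of 22 proteases, 7 of 7 complement genes, 25 of 35 lysosome genes and 13 of 24 ligands were higher. Gla, a lysosomal galactosidase, was at 59.5, 71.8 and 64.4 CPM, against 31.5, 33.3 and 29.9 (TMM log2 1.05 ± 0.10; spike-in 0.65, adjusted p = 0.20). Bdnf, a growth factor of neurons, and Bmp4, a morphogen of bone, gave TMM log2 1.02 ± 0.10 and 0.83 ± 0.09, and the ligand Ptn fell with both scalings (spike-in -1.44 ± 0.38), though not with spike-in scaling without siControl LacZ library 1 or siHsf1 LacZ library 2. Pdgfra, a receptor and fibroblast marker, was at 85.9, 68.0 and 78.3 CPM, against 37.3, 33.8 and 32.4 (TMM log2 1.17 ± 0.10; spike-in 0.82, adjusted p = 0.097). The immediate early genes Fos (1.06), Atf3 (0.40) and Btg2 (0.21) were called with TMM only, and the sign of Atf3 and Btg2 flipped with spike-in scaling (-0.03 and -0.16). The TMM call of Btg2 ended without siControl LacZ library 1 or 2 or siHsf1 LacZ library 1 or 3 (adjusted p 0.053 to 0.19), and that of Atf3 without siControl LacZ library 1 or 3 or siHsf1 LacZ library 2 (adjusted p 0.076 to 0.25); with the 6 libraries of the line alone both ended. Of the 5 collagens 2 were higher with TMM and 0 were called with spike-in scaling, and the median changed sign between them (0.19 and -0.19). The median of the lysosome genes was 0.34 with TMM and -0.04 with spike-in scaling.

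Genes of protein synthesis and division were among those that fell. Of the 5 ribosomal protein genes without a peak, 4 were lower with spike-in scaling and 5 with TMM (median log2 -1.04 and -0.67). Of the 75 with a peak, 57 and 70 were lower, with a TMM median of -0.66. Rpl18 was at 342, 390 and 354 CPM with siHsf1, against 542, 650 and 536 with siControl (log2 -1.04 ± 0.32, adjusted p = 0.025), without overlap. Rps20 and Rpl37a fell by a log2 of 1.04 and 0.95, and Rpl15 reached -0.92 (adjusted p = 0.053). Ccnd2 was at 23.1, 22 and 19.4 CPM, against 43.6, 36.4 and 47.7 (log2 -1.37 ± 0.32, adjusted p = 0.0021). Cenpa, the histone variant of centromeres (-1.02), and Cenpf, a kinetochore protein (-1.01), were the called members of the 8 mitosis genes with spike-in scaling; with TMM 7 were lower, Bub1b and Mki67 among them. With spike-in scaling the calls of Rpl17, Rpl18, Rpl37a, Rps20, Cenpa, Cenpf and Tigar each ended without siControl LacZ library 1 or 3 or siHsf1 LacZ library 2 or 3 (for Rpl18, log2 -0.86 to -1.10 and adjusted p 0.072 to 0.18), and that of Ccnd2 without siHsf1 LacZ library 3 (log2 -1.28, adjusted p = 0.071). Of 7 p53 target genes 1 was lower with spike-in scaling, Tigar (-1.0), and 5 with TMM. Of the 3 chaperone genes 0 were called with spike-in scaling; with TMM Cdc37 and Chordc1, partners of HSP90, were lower (log2 -0.49 each) and Dnajb5 was higher (0.47), though not without siControl LacZ library 1 or siHsf1 LacZ library 1 or 2 (adjusted p 0.078 to 0.104).

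The largest falls were in genes of several kinds. The predicted gene Gm8210 led with a log2 of -2.56 ± 0.44, with 0.828, 1.65 and 2.08 CPM with siHsf1, against 5.23, 8.35 and 7.07 with siControl. Ppl, periplakin of the cell cortex, was at 3.87, 2.59 and 3.42 CPM, against 11.1, 7.08 and 11.8 (log2 -1.99 ± 0.40, adjusted p = 0.00013). 9030617O03Rik was at 12.6, 10.1 and 12.7 CPM, against 31.6, 30.7 and 33.6 (-1.80 ± 0.34). Stau2, which carries mRNA in cells (-1.67 ± 0.39), Prrg4, a membrane protein with a vitamin K-dependent domain (-1.60 ± 0.34), and Pros1, the anticoagulant protein S (-1.50 ± 0.34), followed. Galnt12, Pgm2l1, Dctd (each -1.41 or -1.40) and Egln3, a prolyl hydroxylase acting on HIF (-1.31), close the group. Leaving out 1 library ended the spike-in calls of Galnt12 and Pgm2l1 (siControl LacZ 1, siHsf1 LacZ 2 or 3), Egln3 (siHsf1 LacZ 2 or 3) and Dctd (siHsf1 LacZ 3), with Galnt12 at a log2 of -1.17 to -1.46 in these cases.

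In the GCN5 line 0 of the 1710 genes were called after siHsf1 with spike-in scaling, where 5 of all 12187 were (0.041%, of which 0.0328% higher and 0.00821% lower); 10 had an unadjusted p under 0.05. Hsf1 itself was not called in that fit. With TMM scaling 2 were called, both higher, where 20 of all genes were (0.164%, with 0.0656% higher and 0.0985% lower). Abca1 was at 25, 29.1 and 27.4 CPM with siHsf1, against 15.9, 16.8 and 16.3 with siControl (log2 0.73, adjusted p = 0.0088). Flt1, a VEGF receptor, was at 11.5, 10.4 and 11.5 CPM, against 6.22, 5.97 and 3.88 (log2 1.05, adjusted p = 0.038). Neither gene's groups overlapped, and in the LacZ line Flt1 was not called, with a log2 of 0.07 with TMM and -0.26 with spike-in scaling. The median over the set was -0.03 by spike-in and 0.01 by TMM scaling, against -0.04 and -0.00 over all genes. Leaving out any 1 library of the GCN5 line ended the TMM call of Flt1, and leaving out each but siHsf1 GCN5 library 1 ended that of Abca1.

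The response itself differed between the lines for 10 of these genes with spike-in scaling, by the test of the interaction of siHsf1 and line, 2 with a higher and 8 with a lower effect in the GCN5 line. Of all genes 48 did (0.394%, with 0.172% higher and 0.222% lower). With TMM it did for 323, 124 with a higher and 199 with a lower effect in the GCN5 line, or 18.9% of them, where 21.9% of all genes did (11% higher and 10.9% lower). Ifit3 was at 1.92, 5.06 and 3.75 CPM in siHsf1 GCN5 libraries, against 5.14, 6.51 and 3.32 in siControl GCN5 libraries, and its effect was lower by a log2 of 4.04 ± 0.55 than in LacZ (adjusted p = 2.0e-09). Mmp13 was at 6.01, 6.58 and 8.21 CPM, against 7.30, 5.70 and 9.97. Acta2 was at 31.0, 34.9 and 25.3 CPM, against 33.3, 39.6 and 37.1, so that its siControl level in the GCN5 line lay between the groups of the LacZ line. All 11 interferon genes had a lower effect in the GCN5 line with TMM scaling. Prrg4 was at 19, 19.8 and 20.4 CPM, against 18.7, 16.6 and 13.8, where the LacZ line showed a fall. Depth and line coincide in these libraries, and their parts in the difference cannot be told apart.

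**Figure D5:**
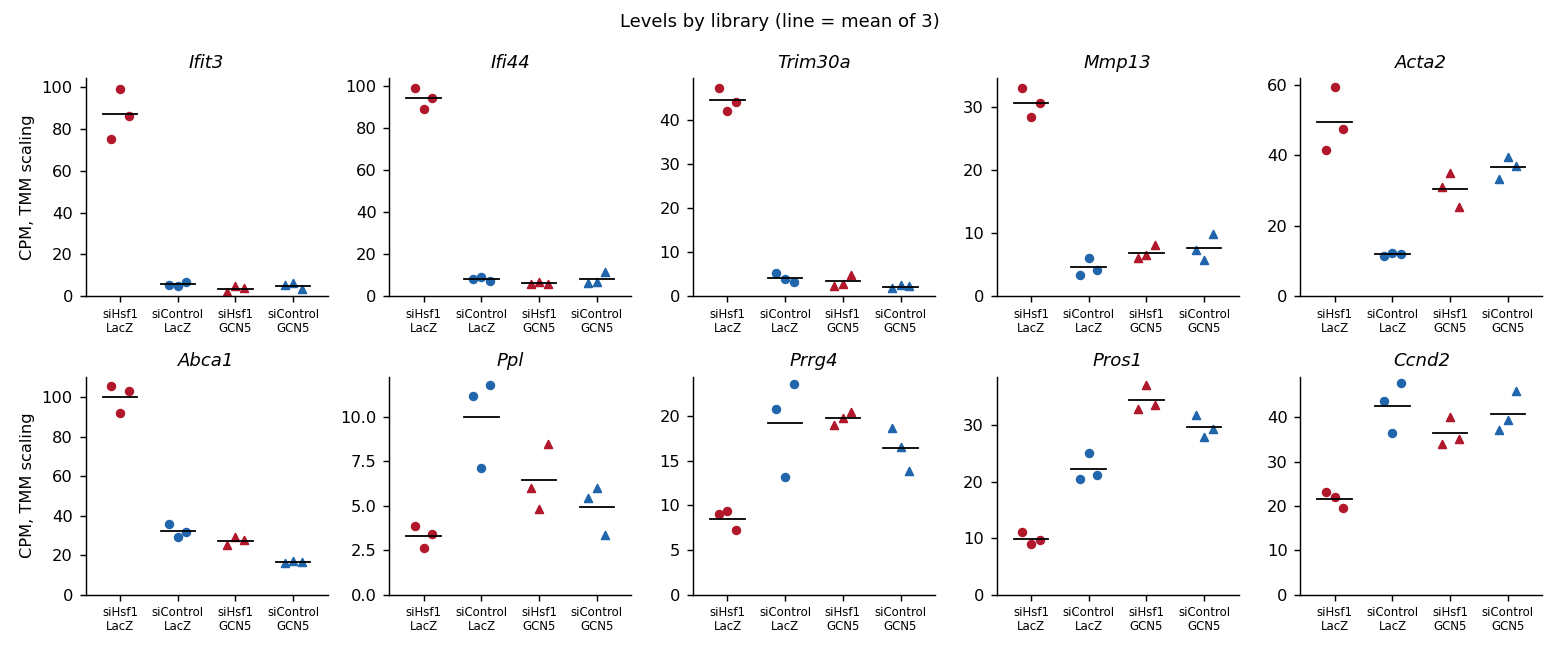
Levels (CPM with TMM scaling, linear axis from 0) of 10 peak-free genes in each of the 12 libraries, with siHsf1 (red) left of siControl (blue) for the LacZ line (circles) and the GCN5 line (triangles); the line is the mean of 3 libraries. Ifit3, Ifi44, Trim30a and Mmp13 were high in the 3 siHsf1 LacZ libraries alone, Ppl, Prrg4, Pros1 and Ccnd2 were low there, and Abca1 was higher with siHsf1 in both lines.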

How the data were processed

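RNA libraries were made with ribosomal RNA removed and a stranded total RNA kit, with ERCC spike-in RNA mix 1 in siControl and mix 2 in siHsf1 RNA, per the labels' protocols. The authors deposited raw counts and FPKM values for 41608 genes, and 1 peak list per genotype with a maximal coverage signal for each peak; HISAT2, Bowtie2, SEACR and DESeq2 stand in the submitters' processing notes on GRCm38 (mm10), and the sources used here do not give versions or say whether peaks were called on pooled libraries. The FPKM values deposited by the authors set the expression minimum and were not tested.

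Counts were tested with edgeR 4.0.16 (R 4.3.3, quasi-likelihood, robust, 4 group means over 12 libraries, 8 residual degrees of freedom). A filter with a minimum count of 10 left 12187 genes, and Benjamini-Hochberg adjusted p under 0.05 was the call over all of them. The sum of the 23 ERCC transcripts (of 92) that both mixes hold in equal amounts set the library scale; TMM scaling is given beside it. Replicates varied more under spike-in scaling (biological coefficient of variation 0.274) than under TMM (0.089). The method was tested on simulated data with a spread near that under TMM and with spike-in totals free of noise. That test does not cover the larger spread under spike-in scaling. With TMM scaling, same-numbered siHsf1 and siControl libraries did not deviate together (r from -0.062 to 0.065). This check cannot see the spike-in scale. In LacZ libraries 1, 2 and 3, ERCC RNA made up 0.893%, 1.65% and 1.30% of counts with siHsf1. With siControl it made up 0.711%, 1.19% and 0.956%, in the same order. In the GCN5 line the order differed (1.17%, 1.15% and 1.43% against 0.968%, 1.45% and 1.20%). Whether the numbers pair samples is thus not known. The limit behind a gene without counts was 3 counts, or 0.368 to 0.812 CPM by library, which covers counting error only.

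Named genes were the 10 largest called rises and falls per comparison and scaling without overlap, at a mean log2 CPM not under 2, the 10 highest FPKM, up to 4 genes of each list by p, the starts nearest each threshold, and Hsf1, Myc and Kat2a. The members, lists and tests were chosen with earlier results of these data known. Alternatives were DESeq2 1.42.0, other scalings, filters, windows and minimums, a replicate block and leaving out each library. Libraries of siMyc cells and their controls were not analysed here.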

Additional observations from a re-analysis of the deposited data

Results flagged for a closer look

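Among the peak-free genes, the effect of siHsf1 differed between the GCN5 and the LacZ line for 10 with spike-in scaling (edgeR test of the difference, adjusted p under 0.05). The value given is the log2 effect in the GCN5 line minus that in the LacZ line. It was negative for 8 genes that rose in the LacZ line. Ifit3 gave -4.04 ± 0.55 (SE, adjusted p = 2.0e-09) and Ifi44 gave -3.60 ± 0.51 (adjusted p = 1.4e-08). Mmp13 gave -2.66 ± 0.53 (adjusted p = 0.00035), Trim30a -2.44 ± 0.60 (0.018) and Zbp1 -2.42 ± 0.49 (0.00052). Trim30d gave -2.18 ± 0.57 (0.033), H2-Q4 -1.99 ± 0.50 (0.023) and Acta2 -1.92 ± 0.47 (0.014). It was positive for 2 genes that fell in the LacZ line, Prrg4 with 1.82 ± 0.48 (0.043) and Ppl with 2.34 ± 0.58 (0.018). All 10 were also called with TMM scaling. Of 18 alternatives, the call ended in 11 for Prrg4, 9 for Ppl, 8 for Trim30d, 7 for Trim30a and 5 each for Acta2 and H2-Q4, and in 0 for Ifit3, Ifi44, Mmp13 and Zbp1.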

How the results depend on the processing

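The scaling decided most counts. Of the genes without a peak, 91 were called in the LacZ line with spike-in scaling, 641 with TMM and 524 with DESeq2 and its own size factors. The 6 libraries of the line alone gave 19 (582 with TMM), the fit with no low-count filter 59, a window of 5000 bp 49 and a minimum of 5 FPKM 51. Leaving out 1 library gave 25 to 393 calls with spike-in and 528 to 630 with TMM scaling. The replicate block gave 433 (51 higher and 382 lower), or 673 with TMM, and whether the replicate numbers pair samples is not known. The sign of the median log2 fold change rests on the scaling (-0.30 by spike-in, 0.07 by TMM). In the GCN5 line the 0 calls became 2 with TMM, 1 with DESeq2 and its own size factors, 28 with the 6 libraries of the line and TMM, and 3 with the replicate block and TMM, with 0 to 1 when 1 library was left out. The 10 differences between lines became 323 with TMM, 237 with DESeq2 and its own size factors, 89 with the replicate block, 347 with the block and TMM, 5 with a window of 5000 bp, 5 with a minimum of 2 FPKM and 2 with 5 FPKM. Leaving out 1 library gave 5 to 342: with spike-in scaling 34 without siHsf1 LacZ library 1, 16 without siHsf1 LacZ library 2, and 5 without siHsf1 LacZ library 3, siControl LacZ library 3, siControl GCN5 library 3, siHsf1 GCN5 library 1 or siHsf1 GCN5 library 3, and 241 to 342 with TMM. The cause of these shifts was not tested. The number of starts without a peak was 938 (9.35%) with a window of 5000 bp, 983 with a minimum of 5 FPKM, 6089 (60.7%) by the CKO list alone and 2616 (26.1%) by the place of maximal coverage. TMM combined with leaving out a library or with the libraries of 1 line, and leaving out chromosomes 7, 12 and 18, were chosen after seeing the data. Of 211 results on named genes, 49 lost their call under some alternative and 0 changed sign among called values. In this count TMM results in the LacZ line had 8 alternatives and spike-in results 13. TMM calls were not set against spike-in scaling there. Calls made with TMM that spike-in scaling missed, such as those of Gla and Pdgfra, were thus not counted as lost for that reason. The GCN5 libraries held 3693554 to 4274852 counts, against 7224496 to 8162787 in LacZ libraries. The standard error of the log2 fold change of Acta2 was 0.33 in both lines with spike-in scaling. The fit shares 1 estimate of the spread over all libraries, so this equality says little about the part of depth.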

Other observations

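Atp5a1, a subunit of mitochondrial ATP synthase on chromosome 18 without a c-MYC peak, varied within groups. It had 0.994, 0.895 and 0.877 FPKM in siHsf1 LacZ libraries, against 1.72, 1.64 and 31.6 in siControl LacZ libraries. In the GCN5 line it had 1.31, 1.53 and 1.79 FPKM with siHsf1, against 17.5, 23.9 and 1.67 with siControl. It was high in siControl LacZ library 3 and siControl GCN5 libraries 1 and 2 and low in the other 9, and it was not called in either line. It was singled out after its values were seen.

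The peak-free genes were also counted by a peak inside the gene body, after siHsf1 in the LacZ line. With spike-in scaling 16 of 1188 peak-free genes with such a peak were higher and 43 lower, against 8 and 24 of 522 without one. The difference between these shares was not tested.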
